A study of Mus musculus with 12 samples.

Results

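Tbx1, Tbx2, Tbx3, Tbx4, Tbx5, Tbx15, Tbx18 and Tbx20, 8 genes of the T-box family of transcription factors, were followed in E11.5 mouse gonads with and without the Polycomb gene Cbx2. They were taken from the array's annotation as every probe set assigned to 1 of these genes and to no other gene, which gave 18 of 34945 single-gene probe sets and 8 of 18193 genes. The knockout embryos (KO) came from matings between Cbx2 heterozygotes and were set against wild-type embryos (WT), with XX and XY gonads kept apart. Each of the 4 groups, XX and XY knockouts and XX and XY wild types, held 3 Affymetrix mouse genome arrays. Embryos had been staged by tail somites, and cells were cut by laser from 30 µm frozen sections stained with hematoxylin, with GATA4 staining and tissue form as the guide. Each array held pooled material of 2 or 3 individuals, from which 15 ng of total RNA went through 2 rounds of amplification. All p-values therefore measure the spread between such pools. In bulk tissue of this kind, fewer cells of a type and less RNA per cell cannot be told apart.

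T-box proteins bind DNA through a shared domain, the T-box, and act as activators or repressors in the embryo's mesenchyme, heart, limb and pharynx. Tbx18 marks mesenchyme of the urogenital ridge, including the layer that forms ureteric smooth muscle, and the epicardium. Tbx2 and Tbx3 are closely related repressors that act in heart, limb and mammary development. Tbx4 and Tbx5 act in hindlimb and forelimb outgrowth, Tbx1 in the pharyngeal arches, Tbx15 in skin and skeleton, and Tbx20 in the heart. CBX2 is a chromatin-binding subunit of Polycomb repressive complex 1, which keeps developmental genes silent, many of them with CpG-rich promoters.

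The promoter windows of Tbx18 and Tbx1 are shown because Tbx18 had the largest change over both sexes among the brightest probe sets of the 8 genes and Tbx1 changed the other way. Each runs 5′ to 3′ on the minus strand of the mouse build GRCm38.p6, from 250 bases before to 50 bases after the RefSeq transcription start, with CpG dinucleotides in capitals.
Tbx18, chr9:87731211-87731510: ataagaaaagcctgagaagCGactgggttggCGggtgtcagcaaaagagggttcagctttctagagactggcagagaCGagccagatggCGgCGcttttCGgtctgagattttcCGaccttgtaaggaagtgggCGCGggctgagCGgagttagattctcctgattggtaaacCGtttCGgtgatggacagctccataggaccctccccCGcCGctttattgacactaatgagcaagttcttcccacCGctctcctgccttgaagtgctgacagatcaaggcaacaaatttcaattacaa
Tbx1, chr16:18588850-18589149: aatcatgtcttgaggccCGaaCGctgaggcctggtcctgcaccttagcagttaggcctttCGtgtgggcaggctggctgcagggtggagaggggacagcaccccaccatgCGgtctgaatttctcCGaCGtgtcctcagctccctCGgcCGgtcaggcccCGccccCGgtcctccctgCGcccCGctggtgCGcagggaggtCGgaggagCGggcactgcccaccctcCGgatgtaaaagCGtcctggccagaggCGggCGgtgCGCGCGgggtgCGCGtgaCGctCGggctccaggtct
Tbx1, chr16:18590622-18590921: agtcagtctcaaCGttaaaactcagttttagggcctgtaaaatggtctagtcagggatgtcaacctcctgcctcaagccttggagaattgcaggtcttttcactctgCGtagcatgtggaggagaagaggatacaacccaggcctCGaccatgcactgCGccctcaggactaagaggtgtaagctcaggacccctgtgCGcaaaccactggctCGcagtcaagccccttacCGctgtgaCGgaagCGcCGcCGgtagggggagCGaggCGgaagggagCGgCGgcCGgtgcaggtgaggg
The Tbx18 window held 15 CpGs, more than 65.4% of 32807 RefSeq mouse windows of the same length, whose median was 7. The Tbx1 windows held 26 and 16 CpGs, more than 83.1% and 67.0% of windows. Promoter windows were matched for 4 of the 8 genes, Tbx1 with 2, Tbx4, Tbx18 and Tbx20. Those of Tbx20 and Tbx4 held 26 and 8 CpGs. Letters of the T-box binding motif were searched on both strands as AGGTGTGA, as AGGTGT and as GGTGT, each of which contains the next, and 1.27%, 13.7% and 41.6% of all windows hold them. The Tbx18 window held 1 match to GGTGT, the second Tbx1 window 1 match to AGGTGT, and the other 3 windows no match to any of them. A match describes the letters and is no measured binding site.

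Values are log2 intensities after robust multi-array averaging (RMA), in which a difference of 1 is a doubling, and the medians of the 12 arrays lay between 5.88 and 5.94. The description of the source material of the WT samples names KO XX gonads, against their titles and genotype entries, which were followed here. Xist, the RNA of the inactive X, averaged 12.6 and 12.8 in the XX groups and 6.03 and 5.95 in the XY groups, and the Y-linked gene Eif2s3y averaged 3.30 and 3.62 in XX and 9.60 and 9.85 in XY (WT first), which matched the labelled sex. Cbx2 itself was higher in the KO groups, at 9.34 ± 0.11 (SD, n = 3) in KO XX and 9.45 ± 0.12 in KO XY against 8.60 ± 0.16 in WT XX and 8.92 ± 0.12 in WT XY. Which part of Cbx2 was deleted is not stated, and this probe set therefore checks nothing about the genotype. KO XX replicate 1 stood apart by liver transcripts: Afp, which encodes the fetal serum protein alpha-fetoprotein, read 11.4 there and 5.42 to 6.26 on the other 11 arrays. WT XX replicate 1 had the lowest mean correlation with its own group, 0.987 against 0.990 to 0.996 for the others. The difference between 3′ and 5′ Gapdh control probe sets, a measure of RNA integrity, was 4.91 ± 0.12 in KO XY and 4.13 ± 0.38 in WT XY (exact permutation test, two-sided p = 0.1, the smallest that 3 against 3 allows). In XX it was 4.05 ± 0.22 in KO and 4.30 ± 0.45 in WT (exact permutation p = 0.4). The mean of the hybridisation control spots was 11.1 ± 0.14 in KO XY and 10.7 ± 0.11 in WT XY (exact permutation p = 0.1), and 11.1 ± 0.31 in KO XX and 11.0 ± 0.59 in WT XX (exact permutation p = 0.8). Calls of T-box probe sets that these arrays or measures changed are given with and without them.

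Tbx18 and Tbx3 were higher in KO gonads of both sexes, by 2.73-fold and 2.34-fold on their brightest probe sets over both sexes. Tbx1 fell to 0.699 of its WT level and Tbx2 to 0.636, and Tbx5 moved by less, to 0.866. Tbx4, Tbx15 and Tbx20 did not pass the test in any comparison. Groups were compared with limma over all single-gene probe sets, and a probe set was called at a Benjamini-Hochberg adjusted p under 0.05. In XY gonads 4 of the 18 T-box probe sets were called higher in KO and 0 lower, against 5.13% and 5.76% of all probe sets. In XX gonads 4 were called higher and 2 lower, against 6.66% and 4.38%. Over both sexes 4 were called higher and 3 lower, against 11.2% and 9.16%. By gene, on the brightest probe set of each, 2 of 8 were called higher and 3 lower over both sexes, against 12.9% and 9.72% of all genes. The median log2 change of the 8 genes over both sexes was -0.09, beside -0.01 for all genes.

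**Figure D1:**
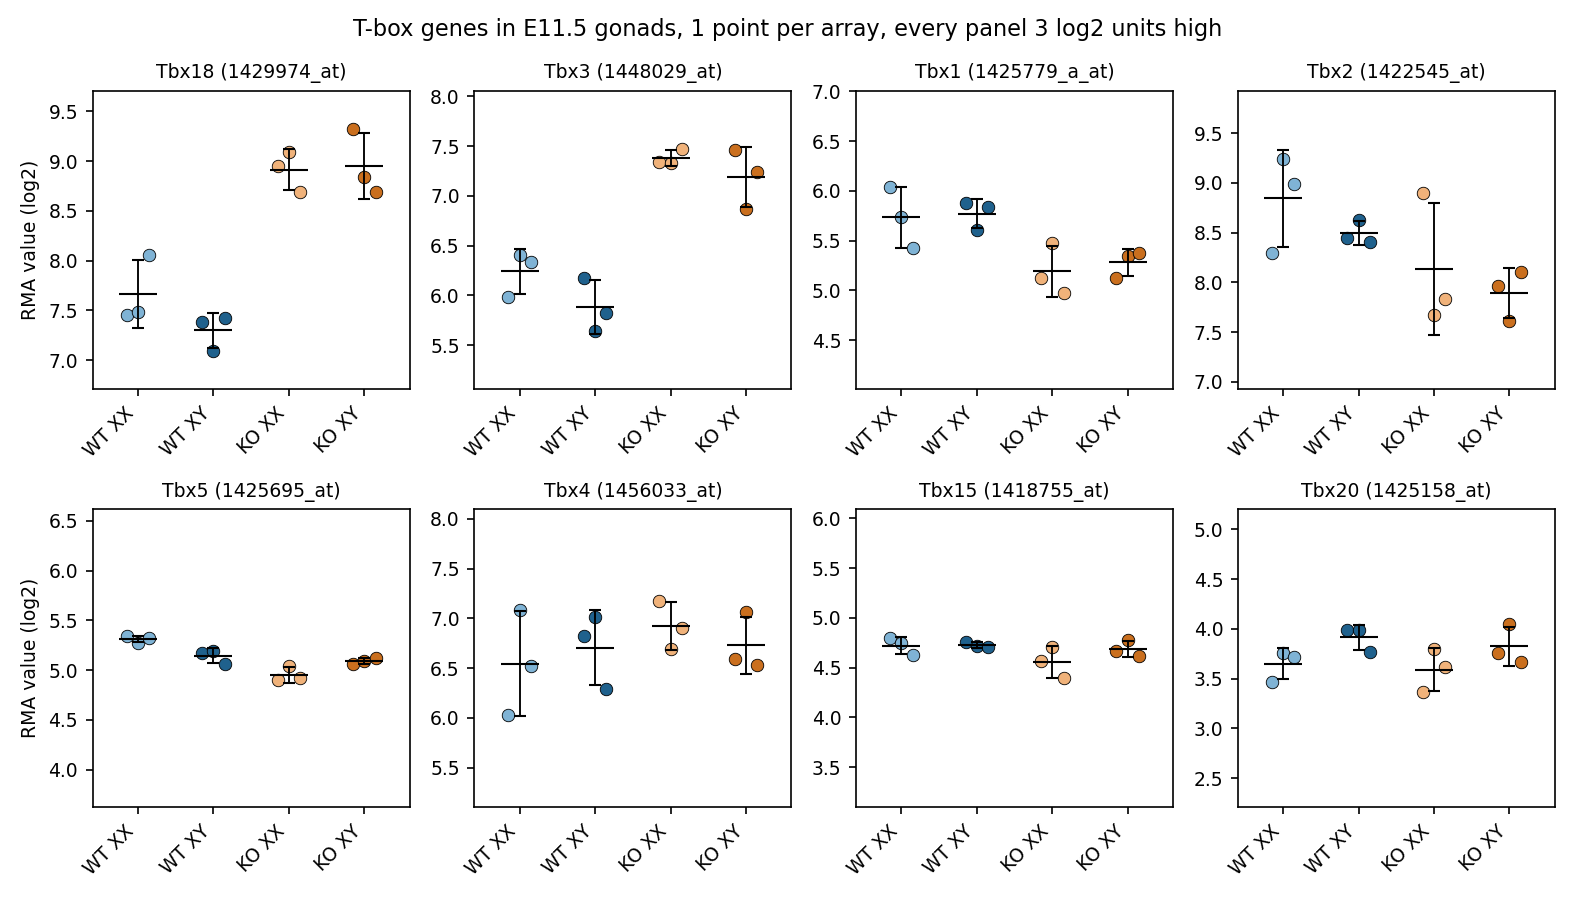
RMA values (log2) of the brightest probe set of each of the 8 T-box genes, 1 point per array, with the group mean (long bar) and SD (error bar, n = 3). Each panel spans the same height in log2 units. For Tbx18 and Tbx3 every KO array lies above every WT array, and the groups of Tbx4, Tbx15 and Tbx20 overlap between KO and WT.

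On brightest probe sets, Tbx18 was the T-box gene with the largest change in each sex. On probe set 1429974_at the KO XX arrays read 8.95, 9.10 and 8.69 and the KO XY arrays 9.33, 8.84 and 8.69. The WT XX arrays read 7.45, 7.48 and 8.06 and the WT XY arrays 7.38, 7.09 and 7.42. The lowest KO array thus stood above the highest WT array in both sexes. The log2 change was 1.65 ± 0.19 (SE) in XY (limma, adjusted p = 4.93e-05) and 1.25 ± 0.19 in XX (adjusted p = 0.000617). The KO groups stood highest, 8.95 ± 0.33 in XY and 8.91 ± 0.21 in XX (SD, n = 3), and differed by less than their spread. WT XX followed at 7.67 ± 0.34 and WT XY at 7.30 ± 0.18. The WT sexes did not overlap, but the difference between them, -0.37 ± 0.19 for XY minus XX, did not pass the test (limma, adjusted p = 0.557).

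The other Tbx18 probe set, 1449871_at, moved the same way at a lower signal. Its KO XX arrays read 5.94, 6.32 and 6.39 and its KO XY arrays 6.72, 5.79 and 6.26. The WT XX arrays read 5.34, 5.58 and 5.23 and the WT XY arrays 4.75, 5.27 and 5.05. KO and WT did not overlap in either sex, and the log2 change was 1.23 ± 0.21 in XY (limma, adjusted p = 0.00123) and 0.83 ± 0.21 in XX (adjusted p = 0.0188). On both probe sets the KO effect was nominally larger in XY. The difference of the effects was 0.41 on 1429974_at, with a 95% confidence interval from -0.17 to 0.98, and did not pass (limma, adjusted p = 0.783).

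Tbx3, the repressor gene, was measured by 5 probe sets, of which 2 rose. On 1448029_at, the brightest, the KO XX arrays read 7.34, 7.33 and 7.47 and the KO XY arrays 7.47, 6.87 and 7.24. The WT XX arrays read 5.98, 6.41 and 6.34 and the WT XY arrays 6.18, 5.65 and 5.82. Every KO array was above every WT array. The log2 change was 1.31 ± 0.17 in XY (limma, adjusted p = 0.000138) and 1.14 ± 0.17 in XX (adjusted p = 0.000522). The levels ran from KO XX at 7.38 ± 0.08 through KO XY at 7.19 ± 0.30 and WT XX at 6.24 ± 0.23 to WT XY at 5.88 ± 0.27 (SD, n = 3). The KO sexes differed by less than their spread, and the ranges of the WT sexes overlapped.

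On Tbx3 probe set 1437479_x_at the KO XX arrays read 6.55, 6.11 and 6.20 and the KO XY arrays 6.21, 5.60 and 6.47. The WT XX arrays read 4.41, 5.30 and 5.20 and the WT XY arrays 4.86, 4.71 and 4.53. Here too the groups did not overlap, and the log2 change was 1.39 ± 0.24 in XY (limma, adjusted p = 0.00143) and 1.32 ± 0.24 in XX (adjusted p = 0.00224). The suffix x_at marks a probe set whose probes may also bind other transcripts. On 1445757_at the KO XX arrays read 5.22, 5.46 and 6.04 against 5.15, 5.38 and 4.97 in WT XX, so the ranges overlapped, and its change over both sexes, 0.33 ± 0.13, did not pass (adjusted p = 0.0957). Without KO XX replicate 1, the array with liver transcripts, it was 0.42 and passed (limma, adjusted p = 0.0311). The remaining 2 Tbx3 probe sets, 1439567_at and 1444594_at, lay between 4.83 and 5.19 and between 3.71 and 4.23 over all 12 arrays, below the median of their array on every one, and changed by 0.04 ± 0.09 and -0.10 ± 0.08 over both sexes. The Tbx3 KO effects in the 2 sexes differed by 0.17 on 1448029_at, with a 95% confidence interval from -0.34 to 0.69.

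**Figure D2:**
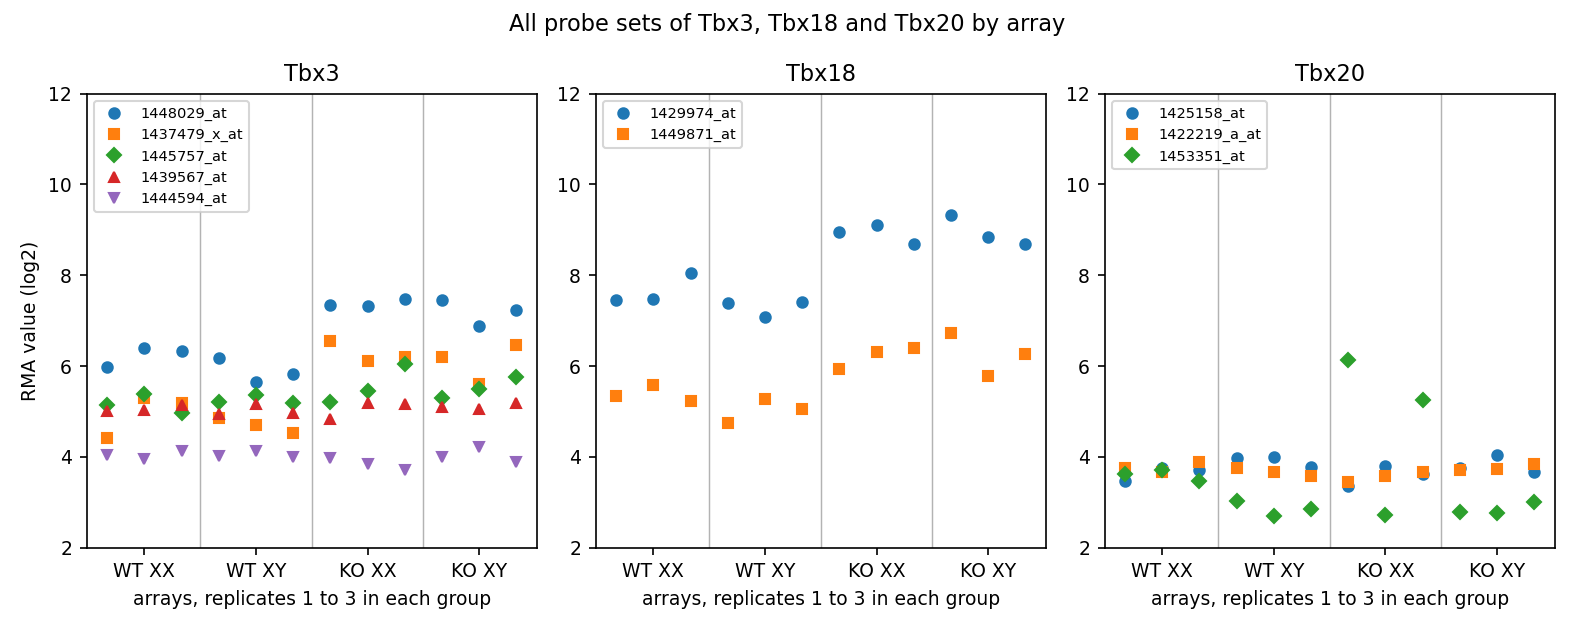
RMA values (log2) of every probe set of Tbx3, Tbx18 and Tbx20 on the 12 arrays, in the order WT XX, WT XY, KO XX and KO XY with replicates 1 to 3 in each. Both Tbx18 probe sets and 2 of 5 Tbx3 probe sets step up between WT and KO, while Tbx20 1453351_at is high on 2 of 3 KO XX arrays.

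Tbx2, the close relative of Tbx3, went the other way. On its probe set, 1422545_at, the WT XX arrays read 8.30, 9.24 and 8.99 and the WT XY arrays 8.45, 8.63 and 8.40. The KO XX arrays read 8.90, 7.67 and 7.83 and the KO XY arrays 7.96, 7.61 and 8.11. KO and WT did not overlap in XY but did in XX, where KO XX replicate 1 lay above WT XX replicate 1. The log2 change over both sexes was -0.65 ± 0.20 (limma, adjusted p = 0.0312). Neither sex passed alone, with -0.60 ± 0.28 in XY (adjusted p = 0.218) and -0.71 ± 0.28 in XX (adjusted p = 0.132). With the hybridisation measure as a covariate both passed, at -0.91 in XY (adjusted p = 0.0154) and -0.80 in XX (adjusted p = 0.0163). XY also passed when its own groups were fitted alone (adjusted p = 0.0125), and XX with array weights, at -0.93 (adjusted p = 0.0348). With the Gapdh measure as a covariate the change in XY was -1.26 and did not pass (limma, adjusted p = 0.0702). The levels ran from WT XX at 8.84 ± 0.49 through WT XY at 8.49 ± 0.12 and KO XX at 8.13 ± 0.66 to KO XY at 7.89 ± 0.25 (SD, n = 3), and each neighbour in this order was nearer than the larger SD of the pair. The call over both sexes was lost under 10 of 23 alternatives: an adjusted p under 0.01, and leaving out any 1 array other than KO XX replicate 1, WT XX replicate 1 and KO XY replicate 3, with an adjusted p of up to 0.0823. Without KO XX replicate 1 the change in XX was -1.09 (limma, adjusted p = 0.00837), and without WT XX replicate 1 it was -0.98 (adjusted p = 0.0354).

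Markers of endothelium fell in KO gonads, as Tbx2 did. Of 16 endothelial genes 14 fell over both sexes and 0 rose, against 9.72% and 12.9% of all genes. In XY 11 fell and in XX 9, against 6.33% and 4.96% of all genes. With the Gapdh covariate 2 fell in XY, where Sox17, Plvap and Sox18 lost their calls. That fit called 3% of all probe sets in XY either way, against 10.9% without the covariate. In XX 3 fell without KO XX replicate 2 or without KO XX replicate 3, 5 without WT XX replicate 1 and 4 without WT XX replicate 2. These fits called 9.04%, 8.1%, 9.63% and 9.6% of all probe sets in XX, against 11% with all arrays. Over both sexes Sox17, Emcn, Plvap and Sox18 changed by -1.35, -0.97, -1.16 and -0.96. The mean level of the 16 genes was 7.56 to 7.76 in WT XX, 7.75 to 7.91 in WT XY, 6.77 to 7.41 in KO XX and 6.65 to 7.24 in KO XY, with no overlap between KO and WT. KO XX replicate 1, the KO array with the highest Tbx2, also had the highest endothelial mean of the KO arrays. It is the array with liver transcripts, and its mean of the macrophage list, 7.48, was the highest of the 12 arrays. Among the WT arrays the order was another: WT XX replicate 1, with the lowest Tbx2 (8.30), had an endothelial mean of 7.76, and the group mean of Tbx2 was higher in WT XX while that of the list was higher in WT XY. By the measure of likeness used here, the root mean square difference of 2 centred profiles over the 12 arrays, the genes nearest to Tbx2 were Pcdh12 (0.134), Arhgef15 (0.178) and Acsl5 (0.198), where the Tbx2 profile itself varied by 0.506. Pcdh12, a protocadherin of endothelial junctions, changed by -0.58 ± 0.20 over both sexes and was not called. Arhgef15, an exchange factor of endothelial cells, changed by -0.66 and Acsl5 by -0.62. These genes were picked for profiles like that of Tbx2 on the same arrays. Their falls follow from that choice and are no separate result. The part of endothelial cells in the Tbx2 result was not tested.

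**Figure D3:**
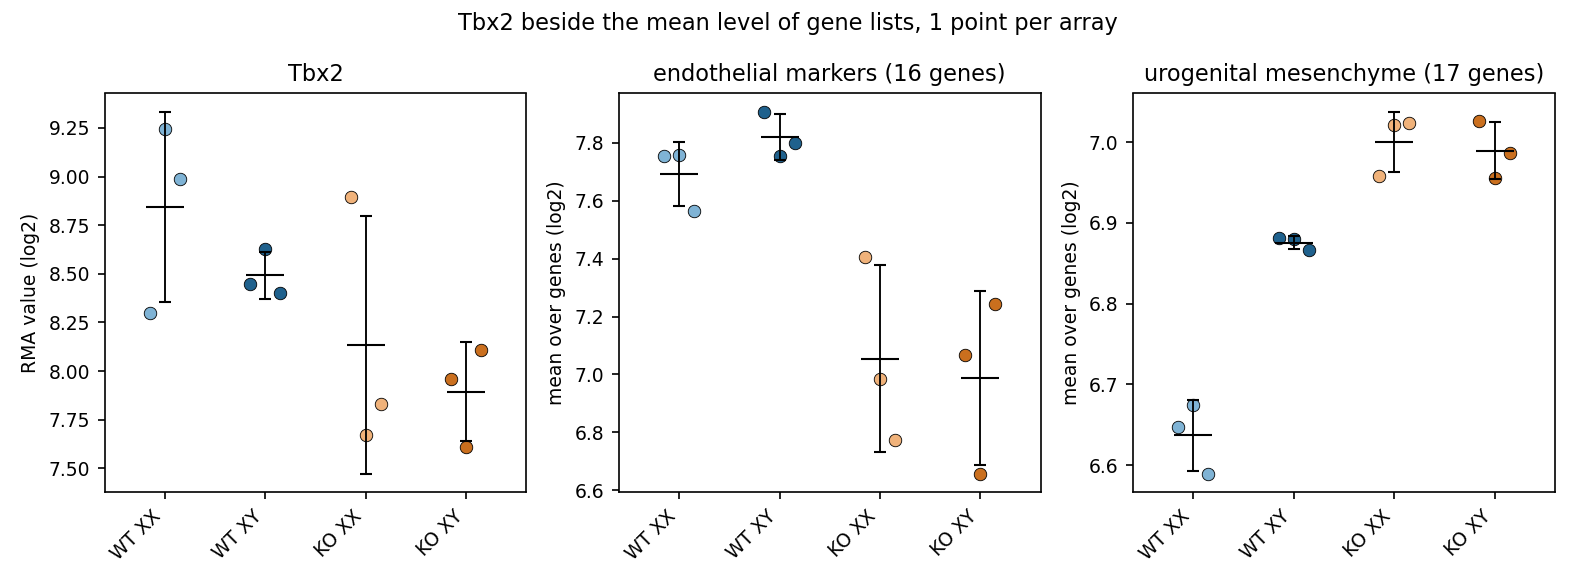
Tbx2 RMA values (log2, left), the mean log2 level of 16 endothelial marker genes (middle) and of 17 urogenital mesenchyme genes (right), 1 point per array with group mean and SD (n = 3), each panel on its own axis. The KO XX array with Tbx2 at 8.90, which is replicate 1 with the liver transcripts, also has the highest endothelial mean among KO arrays, 7.41. The urogenital mesenchyme mean, in which Sox9 is counted, is lowest in WT XX.

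Tbx1, the pharyngeal T-box gene, fell in KO gonads. On 1425779_a_at the WT XX arrays read 6.04, 5.74 and 5.42 and the WT XY arrays 5.87, 5.60 and 5.84. The KO XX arrays read 5.13, 5.47 and 4.98 and the KO XY arrays 5.13, 5.34 and 5.38. KO and WT were apart in XY, and in XX KO replicate 2 lay just above WT replicate 3. The signal was above the median of its array on 1 of 12 arrays. The log2 change was -0.52 ± 0.12 over both sexes (limma, adjusted p = 0.00534), -0.49 ± 0.16 in XY (adjusted p = 0.0737) and -0.54 ± 0.16 in XX (adjusted p = 0.0481). In XY the change was -0.16 with the Gapdh covariate (adjusted p = 0.894). It passed with array weights, with its own groups fitted alone, without WT XX replicate 1 and without WT XX replicate 3 (limma, adjusted p from 0.0157 to 0.048). The XX call was lost under 16 of 22 alternatives, which included leaving out any 1 array other than KO XX replicate 2 and WT XX replicate 3. Its adjusted p was 0.127 without KO XX replicate 1 and 0.159 without WT XX replicate 1 (limma). The call over both sexes held under all 22, among which fitting the groups of the contrast alone is the main fit itself. WT XY at 5.77 ± 0.15 and WT XX at 5.73 ± 0.31 differed by less than their spread, as did KO XY at 5.28 ± 0.13 and KO XX at 5.19 ± 0.26.

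Tbx5, the forelimb gene, gave low signals on both of its probe sets, below the median of their array on all 12. On 1425695_at the WT XX arrays read 5.34, 5.28 and 5.32 and the KO XX arrays 4.90, 5.04 and 4.92. The XY arrays lay between them, at 5.18, 5.20 and 5.06 in WT and 5.06, 5.09 and 5.12 in KO. The groups were apart in XX and overlapped in XY. The change was -0.36 ± 0.10 in XX (limma, adjusted p = 0.0288), -0.06 ± 0.10 in XY (adjusted p = 0.814) and -0.21 ± 0.07 over both sexes (adjusted p = 0.0476). The difference of the effects between the sexes, 0.30, did not pass (adjusted p = 0.754). The call over both sexes was lost under 19 of 22 alternatives, which included leaving out any 1 array other than KO XX replicate 2. Among them were the Gapdh and the hybridisation covariates, with changes of -0.22 and -0.20 (limma, adjusted p = 0.1 and 0.0851). The call in XX was lost under 9, with any 1 WT XX array or KO XX replicate 1 or 3 left out among them. Its adjusted p was 0.0897 without KO XX replicate 1 and 0.0656 without WT XX replicate 1 (limma). The other probe set, 1425694_at, changed by -0.09 ± 0.08 over both sexes.

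Tbx4, the hindlimb gene, showed a clear signal with no change past the test. On 1456033_at, above the array median on all 12 arrays, the KO XX arrays read 7.17, 6.69 and 6.91 and the KO XY arrays 6.60, 7.06 and 6.54. The WT XX arrays read 6.03, 7.08 and 6.53 and the WT XY arrays 6.82, 7.01 and 6.29. All 4 groups overlapped. The change was 0.02 ± 0.25 in XY and 0.38 ± 0.25 in XX, with 95% confidence intervals from -0.50 to 0.55 and from -0.15 to 0.90. Without WT XX replicate 1 the change in XX was 0.12 (limma, adjusted p = 0.807), and with the Gapdh covariate that in XY was -0.40 (adjusted p = 0.777). The fainter probe set 1426321_at changed by -0.02 ± 0.10 over both sexes.

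Tbx15, the skin and skeletal gene, stayed below the array median on every array on both probe sets. Values ran from 4.39 to 4.79 on 1418755_at and from 3.40 to 3.86 on 1422195_s_at, whose suffix marks probes shared between transcripts. The changes over both sexes were -0.10 ± 0.08 and -0.04 ± 0.09. The heart gene Tbx20 was equally faint on 2 of its 3 probe sets, 1425158_at from 3.36 to 4.05 and 1422219_a_at from 3.46 to 3.89, which changed by -0.07 ± 0.10 and -0.06 ± 0.08.

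The third Tbx20 probe set, 1453351_at, set KO XX replicates apart from each other. They read 6.12, 2.72 and 5.25, while the 9 other arrays lay between 2.70 and 3.70. The KO XY arrays read 2.79, 2.76 and 3.0, the WT XX arrays 3.63, 3.70 and 3.47 and the WT XY arrays 3.04, 2.70 and 2.86. The change in XX, 1.10 ± 0.55, did not pass (limma, adjusted p = 0.244). Without KO XX replicate 2 it was 2.09 (adjusted p = 6.25e-05), and without KO XX replicate 1, the array with liver transcripts, it was 0.38 (adjusted p = 0.714). On KO XX replicates 1 and 3 the other Tbx20 probe sets read 3.36 and 3.62 (1425158_at) and 3.46 and 3.66 (1422219_a_at), inside or at the low end of their range over all arrays.

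**Figure D4:**
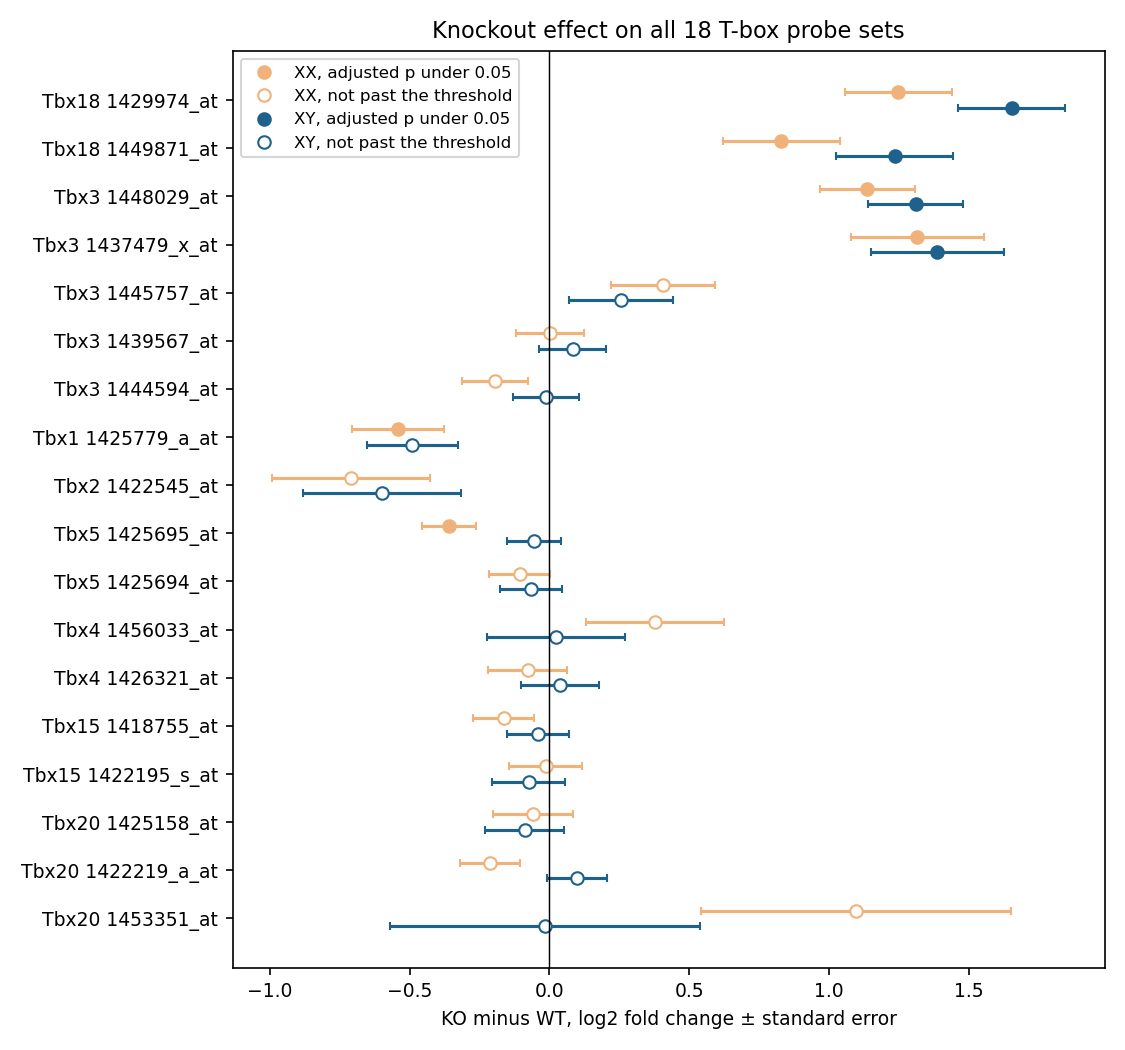
KO minus WT log2 fold change ± standard error of all 18 T-box probe sets in XX and XY gonads (limma, 3 arrays per group). Filled points passed an adjusted p of 0.05: both Tbx18 and 2 Tbx3 probe sets in both sexes above 0, and Tbx1 and Tbx5 1425695_at in XX below 0.

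No T-box probe set passed the test between the sexes. For XY against XX, 0 of 18 T-box probe sets were called in WT and 0 in KO by limma, against 0.0572% and 0.0286% of all probe sets, with 0 and 1 at an unadjusted p under 0.05. That 1 was Tbx20 1453351_at in KO. The test of whether the KO effect differed between the sexes called 0 of 18, against 0.00858% of all probe sets, with 1 at an unadjusted p under 0.05, Tbx5 1425695_at. Leaving out KO XX replicate 2 gave 1 call in KO and 1 in the difference of effects, both of Tbx20 1453351_at. The shares of all probe sets were then 0.0343% and 0.0143%. In WT the share for XY against XX hung on WT XX replicate 1. Without that array 6.95% of all probe sets were called, and with array weights 1.17%. The T-box probe sets called were still 0 of 18 in both fits.

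The 23 alternatives were not all separate checks. For the sexes combined, fitting the groups of the contrast alone is the main fit itself. Within a sex, leaving out an array of the other sex changes the shared spread and not the log2 change. The calls of Tbx18 1429974_at and Tbx3 1448029_at held under all 23, for each sex and for the sexes combined. Without KO XX replicate 1 their changes in XX were 1.23 and 1.16 (limma, adjusted p = 0.00318 and 0.00218), and without WT XX replicate 1 they were 1.14 and 1.01 (adjusted p = 0.00264 and 0.00208). With the Gapdh measure of RNA integrity as a covariate, Tbx3 1437479_x_at and Tbx18 1449871_at lost their calls in XY (adjusted p = 0.19 and 0.0779), at a log2 change of 0.86 against 1.39 for Tbx3 and of 1.11 against 1.23 for Tbx18. On the brightest probe sets the change in XY was then 1.27 for Tbx3 and 1.46 for Tbx18 (limma, adjusted p = 0.0122 and 0.00827). KO XY and WT XY arrays did not overlap on the Gapdh measure, so this fit cannot fully tell it apart from the genotype. In XX, Tbx18 1449871_at lost its call without KO XX replicate 2, KO XX replicate 3 or WT XX replicate 3, with an adjusted p of up to 0.0774, and at an adjusted p under 0.01.

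Among the other T-box genes 7 of 10 listed were measured, and Mga, a dual T-box and basic helix-loop-helix repressor, rose by 0.32 ± 0.10 over both sexes (limma, adjusted p = 0.0314). In XX its change was 0.47 (adjusted p = 0.0381) and in XY 0.16 (adjusted p = 0.557). The call of Mga over both sexes was lost under 9 of 23 alternatives (limma, adjusted p up to 0.091), 6 of which left out 1 array: KO XX replicate 3, KO XY replicate 1 or 2, WT XX replicate 2, or WT XY replicate 1 or 3. That in XX was lost under 11 (adjusted p up to 0.142), among them without any 1 of the KO XX arrays, WT XX replicate 1 or 2, or WT XY replicate 3. Eomes, Tbr1, Tbx6, Tbx19, Tbx21 and Tbx22 were not called in either sex, with changes over both sexes between -0.11 for Tbx19 and 0.13 for Tbr1. The shares called among all genes were 6.1% higher and 6.33% lower in XY and 7.67% higher and 4.96% lower in XX, the background for the lists that follow.

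Of 24 measured partners and co-repressors of T-box proteins, 6 rose and 5 fell over both sexes, with 5 and 5 in XY and 4 and 5 in XX. Without KO XX replicate 1, 2 rose and 3 fell in XX, and with the Gapdh covariate 2 rose and 2 fell in XY. Of all probe sets 8.65% and 3% were called in these fits, against 11% and 10.9% in the main fit. The GATA factors that bind with T-box proteins parted: Gata5 rose by 1.89 ± 0.09 (limma, adjusted p = 5.9e-09) and Gata4, the factor that guided the dissection, fell by 1.45 (adjusted p = 6.09e-07). The Groucho co-repressors parted as well, with Tle3 at 1.05 ± 0.12 and Tle4 at -0.84 ± 0.08. Of 21 genes known as T-box targets in other tissues, 4 rose and 2 fell, with 3 and 2 in XY and 4 and 2 in XX. Cdkn1a, a cell cycle inhibitor that Tbx2 and Tbx3 repress in cultured cells, fell by 1.51 (adjusted p = 4.43e-07), and Gja1, a gap junction gene that both repress in the heart, fell by 0.74 (adjusted p = 1.02e-05). Foxc1 and the smooth muscle coactivator gene Myocd rose by 1.12 ± 0.10 and 1.48 ± 0.14. The median change of the target list was -0.03, beside -0.01 for all genes.

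Of 24 genes of the signals that induce T-box genes, 10 rose and 4 fell over both sexes, with 8 and 4 in XY and 9 and 3 in XX. In XY 4 rose and 3 fell without KO XY replicate 3 or without WT XY replicate 3, and 2 rose and 3 fell with the Gapdh covariate. Of all probe sets 7.58%, 7.06% and 3% were called in these fits, against 10.9% in the main fit. The BMP ligands moved apart, Bmp4 up by 1.34 ± 0.11 (limma, adjusted p = 7.29e-07) and Bmp2 down, with a change of -2.69 ± 0.13 (adjusted p = 5.26e-09). The retinoic acid receptor gene Rarb rose by 1.22 ± 0.12 and the ligand gene Wnt5a by 0.76 ± 0.09. Of 17 genes of ureteric and urogenital mesenchyme, 7 rose and 2 fell over both sexes, with 5 and 2 in XY and 6 and 0 in XX. Sfrp2, a secreted Wnt modulator, rose by 1.14 ± 0.12 and Osr1, an early gene of nephrogenic mesenchyme, by 0.84 ± 0.10. Sox9, which acts in ureteric mesenchyme and in testis determination, fell in XY, with a change of -2.77 ± 0.19 (adjusted p = 4e-07), and was not called in XX, at 0.03 ± 0.19 (adjusted p = 0.941). The mean level of the 17 genes ran from 6.96 to 7.02 in KO XX and from 6.96 to 7.03 in KO XY, against 6.59 to 6.67 in WT XX and 6.87 to 6.88 in WT XY.

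Of 24 limb and body wall mesenchyme markers, 7 rose and 2 fell over both sexes, with 6 and 2 in XY and 7 and 2 in XX. With the Gapdh covariate 4 rose and 1 fell in XY, in a fit that called 3% of all probe sets against 10.9% without it. Twist1, Meis1 and Meis2 rose by 1.12 ± 0.10, 1.0 ± 0.09 and 1.25 ± 0.12, and Msx1, a BMP target, changed by -2.64 ± 0.14. Their mean level was 6.47 to 6.55 in WT XX and 6.59 to 6.69 in KO XX, 6.56 to 6.67 in WT XY and 6.72 to 6.79 in KO XY, so KO and WT did not overlap within a sex. Whether cells of such mesenchyme took part in the Tbx18 and Tbx3 results was not tested.

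Of 13 measured gonad genes, the targeted gene Cbx2 among them, 2 rose and 5 fell over both sexes, with 1 and 5 in XY and 3 and 5 in XX. Changes between KO and WT do not check which tissue was captured. Gadd45g, Nr0b1, Nr5a1, Gata4 and Lhx9 changed by -3.48, -2.24, -2.19, -1.45 and -1.08, and Tcf21 and Cbx2 by 0.76 and 0.63. Wt1, Emx2, Lhx1, Lhx2, Six4 and Zfpm2 were not called over both sexes, with changes from -0.21 for Emx2 to 0.28 for Six4, and Zfpm2 was called in XX alone (0.52, limma, adjusted p = 0.0335). Lhx1 and Lhx2 were faint, with group means of 4.18 to 4.66 and of 3.83 to 3.96, below the array medians. The mean of the 13 genes, Cbx2 included, was 8.48 to 8.90 in KO XX and 8.49 to 8.60 in KO XY, against 9.03 to 9.30 in WT XX and 9.31 to 9.34 in WT XY.

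Lists of neighbouring cell types were counted over both sexes, where 12.9% of all genes rose and 9.72% fell, shares near which several of these small lists lay. Of 14 coelomic epithelium genes 7 rose and 2 fell, led by the keratin gene Krt19 at 2.56 ± 0.10 and Aldh1a1, a retinaldehyde dehydrogenase, at -4.70 ± 0.20, with Upk1b at 1.63 and Krt8 at -1.49. Of 12 genes of mesonephric duct and tubule 2 rose and 1 fell, with Gata3 at 0.66, Epcam at 0.53 and Calb1 at -2.77. Of 8 adrenal primordium genes 1 rose and 2 fell, the receptor gene Mc2r at 1.24 and the steroid enzyme genes Cyp11a1 at -2.47 and Hsd3b1 at -0.49. Of 13 germ cell genes 6 rose and 0 fell, with Prdm14 at 0.57, Ddx4 at 0.62, Dazl at 0.54 and Kit at 0.34. Of 13 macrophage genes 5 rose and 0 fell, with C1qb at 1.11 and C1qa at 0.69, and of 10 neural genes 3 rose and 0 fell, Erbb3 at 0.55, Stmn2 at 0.87 and Isl1 at 0.91. Of 10 erythroid genes 0 rose and 2 fell, Tal1 at -0.69 and Gata1 at -0.51, and of 14 muscle and heart genes 0 rose and 3 fell, Myh6 at -1.07, Myl7 at -0.48 and Myl4 at -0.43. Leaving out 1 array moved some of these counts, in fits that called 16.1% to 20.6% of all probe sets, against 20.3% with all arrays. The erythroid count ran from 0 to 3 and stayed at 2 or more only without KO XX replicate 2, KO XY replicate 3 or WT XX replicate 2. The germ cell count was 3 without KO XX replicate 1, KO XY replicate 1, WT XY replicate 1 or WT XY replicate 3, and the macrophage count was 8 without KO XX replicate 3. The part of these cell types in the T-box results was not tested.

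**Figure D5:**
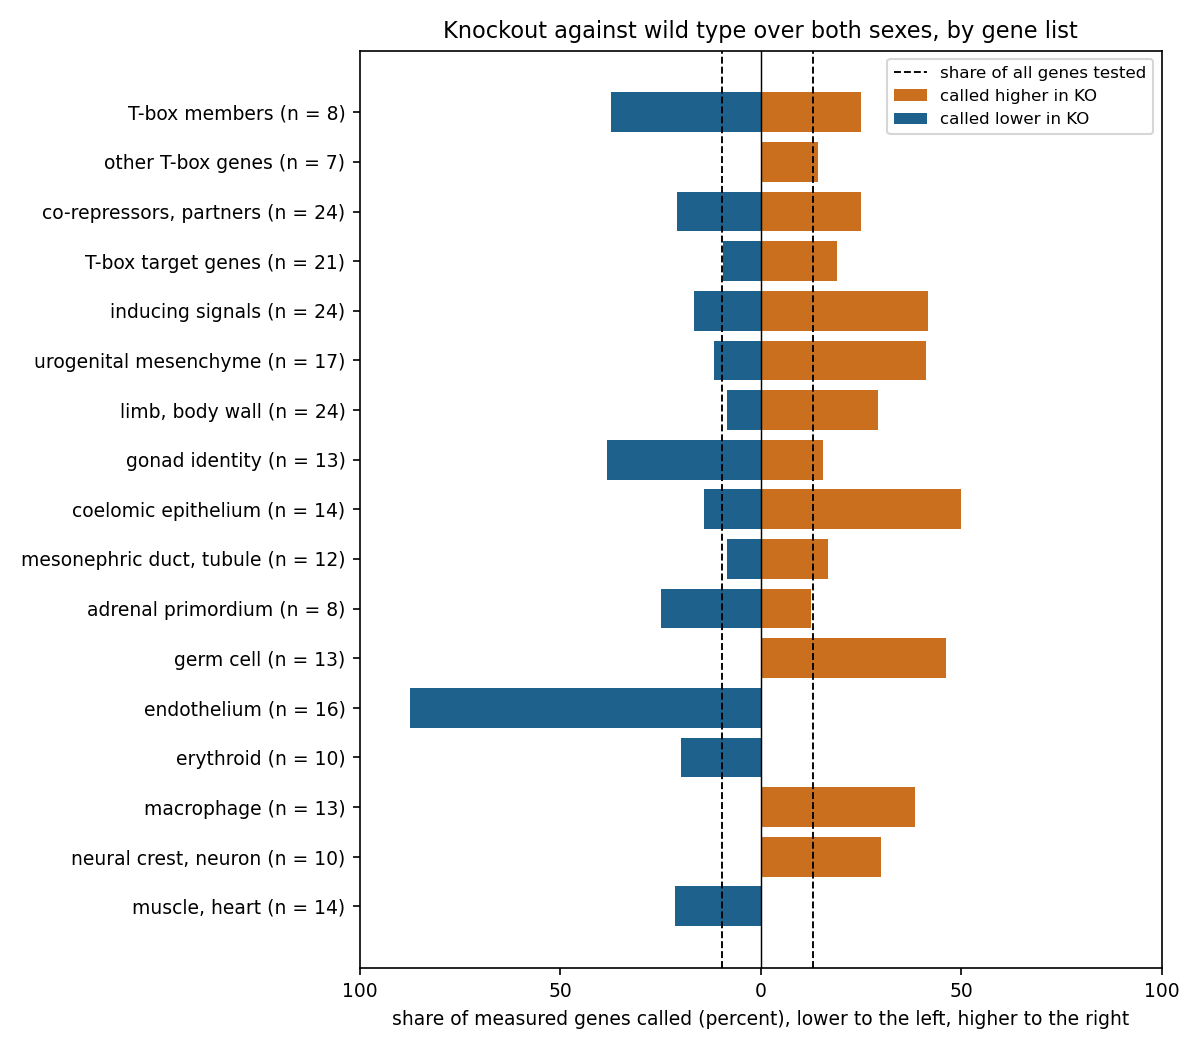
Share of measured genes called lower (left) or higher (right) in KO over both sexes, in percent, for the T-box genes and 16 other gene lists (limma, adjusted p under 0.05), with n measured genes after each name. Dashed lines give the shares among all genes tested, 9.72% lower and 12.9% higher, and the endothelial list lies farthest to the left with 14 of 16 genes lower.

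The genes most like the changed members over the 12 arrays were picked by the same root mean square difference. A change like that of the member follows from this choice and is no separate result. For Tbx18 they were the calcium channel gene Cacna1e (0.209), Shisa3 (0.209) and the forkhead gene Foxp1 (0.215), with a variation of the Tbx18 profile itself of 0.771. These rose by 1.29 ± 0.09, 1.58 ± 0.10 and 1.33 ± 0.12 over both sexes. For Tbx3 they were the ephrin gene Efna5 (0.192), the netrin receptor gene Unc5c (0.196) and Sfrp2 (0.200), which rose by 1.06 ± 0.09, 1.29 ± 0.09 and 1.14 ± 0.12, where Tbx3 itself varied by 0.657. For Tbx1 they were Pfkfb4 (0.0996), Stim1 (0.122) and Trpm6 (0.129), and for Tbx5 they were Cd244a (0.0640), Wdr59 (0.0664) and Jund (0.0707).

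Tbx2 and Tbx4 lie next to each other in the genome, as do Tbx3 and Tbx5, by the order of measured protein-coding genes in RefSeq. In both pairs the measured changes differed: over both sexes Tbx2 changed by -0.65 and Tbx4 by 0.20 ± 0.17, and Tbx3 by 1.22 ± 0.12 and Tbx5 by -0.21. The outer neighbours of these pairs, Bcas3, Brip1, Med13l and Rbm19, were not called, with changes from -0.16 to 0.04. Nearest to Tbx18 among measured genes, Cep162, 447 kb away, rose by 0.31 ± 0.09 (limma, adjusted p = 0.0337). Nt5e, 596 kb away on the other side, changed by -0.07 ± 0.08. Gnb1l and Gp1bb beside Tbx1 were not called, at 0.02 and -0.02. Beside genes that were not called, Wars2, 19.1 kb from Tbx15, changed by -0.36 ± 0.10 (limma, adjusted p = 0.0221). Herpud2, 334 kb from Tbx20, changed by 0.44 ± 0.09 (adjusted p = 0.00383), while Spag17 and Dpy19l2 changed by -0.10 and 0.00. Over both sexes 12.9% of all genes were called higher and 9.72% lower. Whether a member and its neighbour change together was not tested.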

How the data were processed

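Gene expression was measured on 12 Affymetrix mouse arrays of pooled, laser-captured gonad cells. The deposited values are log2 intensities that the authors made with RMA (background correction, quantile normalization, summary by probe set). Affymetrix Expression Console, RMA and affy are the tools listed, per the submitters' processing notes, without versions. The deposited values, from 2.37 to 15.0, were used as given, with no filter on low values. For arrays, their number limits the precision.

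Of 45101 probe sets 64 were controls, 34945 had 1 gene in the platform annotation, 932 several and 9160 none, and identifiers tied 34741 of those with 1 gene to RefSeq, with 0 symbols changed. For each gene the brightest probe set stood for it, except for the T-box genes, all of whose probe sets are given. Groups were taken from titles and genotype entries. Tests used limma 3.58.1 under R 4.3.3 (lmFit with 4 group means, then eBayes with its defaults, 8 residual degrees of freedom) over all 34945 probe sets, two-sided, with Benjamini-Hochberg adjustment in each of 6 contrasts. The steps were tested on simulated data.

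Array measures were compared by exact permutation tests. The T-box genes and the gene lists were chosen with earlier results of these data known. Named were every T-box probe set, the other T-box and gonad genes, the up to 4 genes of each list with the smallest p over both sexes, the 3 genes most like each changed T-box gene (clone names left out), and the genome neighbours. A liver list was added after the data were seen. Replicate numbers showed no sign of pairing the arrays. Deviations of same-numbered arrays correlated at -0.19 to 0.24 over 18 pairs (mean 0.04), and of others at -0.28 to 0.27 over 36 pairs (mean -0.02). Ranges that overlap in this way cannot exclude a pairing. Alternatives covered normalization, filter, probe set choice, prior, array weights, replicate block, groups fitted, threshold, 2 covariates and leaving out each array.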

Additional observations from a re-analysis of the deposited data

Results flagged for a closer look

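Sox9 was the gene of the lists whose KO effect differed between the sexes by the interaction test (limma, adjusted p under 0.05): the effect in XY minus that in XX was -2.80 on probe set 1424950_at. No T-box probe set was picked out by that test. Groups of 3 arrays were too small for a test of single outlying arrays.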

How the results depend on the processing

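Over the T-box probe sets, all comparisons and all alternatives run, 2265 values kept their side of the threshold, 60 lost a call and 15 gained one. None of the 375 alternative values of a called result turned its sign, and 123 of the 1965 of a result that was not called did. Many alternatives leave the log2 change as it was, and its sign could not turn there. Among these are the threshold, the prior, the replicate block and, within a sex, leaving out an array of the other sex. The lack of turned signs is therefore no measure of robustness for those values. A filter that kept the brighter part of the probe sets left 4 of the 18 and called 2 in XY, 2 in XX and 3 with the sexes combined. Of all probe sets kept, 19.8%, 18.8% and 34.1% were called. With 1 probe set a gene 2 were called in XY, against 13.3% of all genes. At an adjusted p under 0.01, 3 were called in XX, against 5.5% of all probe sets. With the Gapdh covariate 2 were called in XY, against 3% of all probe sets. With 1 array left out, the counts ran from 4 to 5 in XY, 3 to 6 in XX and 5 to 7 over both sexes. Of all probe sets 6.94% to 15.2%, 8.1% to 10.8% and 16.1% to 20.6% were then called. The counts ran from 0 to 1 for XY against XX in KO and from 0 to 1 for the difference of effects. The shares of all probe sets there were 0.0258% to 0.0572% and 0.00858% to 0.0258%. For XY against XX in WT the count stayed at 0, while 0.0401% to 6.95% of all probe sets were called. With a replicate block XY gave 4 calls, XX 5 and the sexes combined 6, against 11.4%, 11.2% and 20.8% of all probe sets. Under it Tbx1 in XX (limma, adjusted p = 0.059) and Tbx5 1425695_at over both sexes (adjusted p = 0.0651) lost their calls. The replicate numbers showed no sign of pairing, but a pairing was not excluded. The fewer calls under the filter and with 1 probe set a gene go with fewer probe sets tested, and the cause of the other shifts was not tested. Faint probe sets, such as those of Tbx5, Tbx15 and Tbx20, lay below the array median and limit what could be seen of them.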

Other observations

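The liver transcripts of KO XX replicate 1 were described with a list added after the data were seen. Of 10 measured genes 8 were highest on that array, and the mean of the list was 6.98 there against 4.82 to 5.22 on the other 11 arrays. Alb, the serum albumin gene, read 9.33 against 4.77 to 5.95, and Rbp4, a retinol carrier, read 8.17 against 4.34 to 4.72. Ttr, counted among the 8, was highest by little, at 6.29 against up to 6.27 on the other arrays. Ahsg and Apob were not highest there. Ahsg read 5.36, inside the range of the other arrays, and Apob read 5.41, the lowest of the 12 arrays. The genes most like Tbx20 1453351_at over the 12 arrays, picked after its values were seen, were Igfbp1, Ccdc158, Rbp4, Cacnb4 and Fgb. Of these, Igfbp1, Rbp4 and Fgb were high on KO XX replicate 1 alone, at 7.13, 8.17 and 6.33, while replicate 3 read 4.56, 4.72 and 4.28. Ccdc158 read 5.69 and 5.54 on KO XX replicates 1 and 3 and 4.29 on replicate 2, and Cacnb4 read 5.84, 5.51 and 4.87, the same order as Tbx20 1453351_at with 6.12, 5.25 and 2.72.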
